A study of Homo sapiens with 4 samples.

Results

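The genes described here are 38 parts of the human autophagy machinery, from the kinases that start an autophagosome to the receptors that bring it cargo and the lysosomal proteins that receive it. They form a list of gene names by function, and the rule that picks their probe sets uses no measured value, though the list was drawn up with earlier results of these data known. A probe set, a group of short array probes combined into 1 value, was taken where the platform annotation gave it exactly 1 gene symbol and that symbol was a member. All 38 of 38 members were measured, among 19775 genes in all, by 102 of 54613 probe sets. Each gene is led by its brightest probe set, the one with the highest mean over all 4 arrays, and its other probe sets are given where they differ.

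The arrays hold total RNA from CaSki, a human papillomavirus-positive cervical squamous carcinoma line. The cells carried ectopic ZNF750, a transcription factor of epidermal differentiation, delivered by lentivirus (2 arrays), or ectopic GFP delivered in the same way as the control (2 arrays). The labels describe the medium of both groups as holding 0% fetal bovine serum. Whether that entry is a typing error could not be settled. The series asks which genes ZNF750 regulates in squamous carcinoma. The labels name 1 cell line and call the arrays biologic duplicates, but do not say how the cultures were made, so the p-values measure the spread between these arrays.

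Macroautophagy encloses cytoplasm in a double membrane and delivers it to the lysosome. The ULK kinase complex starts the process when nutrients or growth factors are scarce, and a class III PI3-kinase complex marks the membrane with the lipid PI3P. WIPI proteins read that lipid, ATG2 proteins feed membrane lipid into the structure, and ATG9 vesicles seed it. A pair of ubiquitin-like conjugation reactions then attaches the ATG8 proteins, LC3 and the GABARAP family, to the membrane, where receptors such as p62 bind them together with ubiquitylated cargo. In stratified epithelia autophagy is active in differentiating keratinocytes. Only RNA was measured here, and autophagic flux also depends on phosphorylation, lipidation and turnover of these proteins.

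The windows below hold the 250 bases before a RefSeq transcription start, from GRCh38.p14, read 5′ to 3′ on the strand of the gene. WIPI2 (chr7:5189983-5190232, plus strand) and ATG5 (chr6:106325438-106325687, minus strand) are shown because they had the highest and the lowest difference among the members, and for each the outermost of 2 windows is given. ATG3 (chr3:112561963-112562212, minus strand), ATG14 (chr14:55411831-55412080, minus strand) and LAMP1 (chr13:113296989-113297238, plus strand) are shown because they were the members with CACGTG, the core of the site bound by TFEB and other E-box factors. Capitals mark CACGTG.
WIPI2: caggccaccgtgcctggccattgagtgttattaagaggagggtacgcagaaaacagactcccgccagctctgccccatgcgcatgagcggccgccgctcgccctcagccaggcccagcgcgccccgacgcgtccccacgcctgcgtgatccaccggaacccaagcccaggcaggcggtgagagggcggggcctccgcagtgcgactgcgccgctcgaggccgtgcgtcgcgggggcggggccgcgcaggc
ATG5: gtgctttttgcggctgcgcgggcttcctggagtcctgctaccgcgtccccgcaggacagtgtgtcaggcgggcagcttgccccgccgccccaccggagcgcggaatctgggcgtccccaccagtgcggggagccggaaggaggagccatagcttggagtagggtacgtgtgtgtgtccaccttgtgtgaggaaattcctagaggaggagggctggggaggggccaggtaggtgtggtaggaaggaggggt
ATG3: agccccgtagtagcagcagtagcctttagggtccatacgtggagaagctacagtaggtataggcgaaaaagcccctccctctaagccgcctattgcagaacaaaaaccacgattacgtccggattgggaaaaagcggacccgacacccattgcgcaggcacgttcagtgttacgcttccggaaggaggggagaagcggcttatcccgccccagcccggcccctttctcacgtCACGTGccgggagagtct
LAMP1: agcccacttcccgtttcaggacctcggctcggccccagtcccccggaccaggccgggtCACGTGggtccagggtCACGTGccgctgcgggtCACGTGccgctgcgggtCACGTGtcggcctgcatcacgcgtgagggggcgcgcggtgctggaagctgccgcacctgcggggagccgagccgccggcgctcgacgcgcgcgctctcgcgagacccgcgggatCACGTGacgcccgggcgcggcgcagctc
ATG14: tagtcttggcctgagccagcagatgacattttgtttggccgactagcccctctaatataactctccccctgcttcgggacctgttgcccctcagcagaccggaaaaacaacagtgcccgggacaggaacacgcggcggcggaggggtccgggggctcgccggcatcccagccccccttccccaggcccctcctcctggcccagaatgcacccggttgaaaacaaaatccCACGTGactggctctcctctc

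Of the 38 members, 34 had a window in the RefSeq table. CACGTG, which reads the same on both strands, was in 3 of these 34 members (8.82%), against 7.73% of 27305 genes with a window of the same length. It lay 18 bases before the start in ATG3 and 21 bases before it in ATG14. LAMP1 held 5 copies, the nearest 28 bases and the farthest 192 bases before the start. The longer TCACGTGA, which contains CACGTG, was in LAMP1 alone among the members (2.94%), against 1.04% of genes. CCNNNAGGC, a motif described for ZNF750, was searched on both strands and was in 8 of 34 members (23.5%), against 27.3% of genes. Those 8 were ATG10, ATG2A, ATG3, ATG4A, ATG7, PIK3R4, TFEB and ULK1. Neither WIPI2 nor ATG5 held any of the 3 motifs in these windows. A match here is a run of letters, and no binding was measured.

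The ZNF750 probe set, 219995_s_at, read 2.23 and 2.29 on the ZNF750 arrays, against 2.13 and 2.37 on the GFP arrays. The groups overlapped, with a difference of 0.0037 ± 0.12 (log2, SE; limma adjusted p = 0.992), so it offers no check of the labels. Whether these probes read the introduced sequence was not tested. Arrays of 1 group correlated at 0.998 over 19775 genes and arrays of different groups at 0.994 to 0.995. The 9 measured epithelial markers had means of 10.6 to 14.5, KRT5, KRT14 and EPCAM among them, and 3 of them rose and 1 fell. The leukocyte list lay at 3.95 to 5.88 and the endothelial list at 3.01 to 6.06. The fibroblast list lay at 2.70 to 8.36, and none of the genes of the last 3 lists passed the test. PTPRC, the pan-leukocyte gene, read 3.94 and 4.06 on the ZNF750 arrays, against 3.90 and 3.91 on the GFP arrays. These are bulk extracts, in which fewer cells of a kind and less RNA per cell cannot be told apart. The ACTB 3′ minus 5′ control, a sign of RNA and label integrity, was 3.76 and 3.35 on the ZNF750 arrays, against 3.03 and 2.81 on the GFP arrays (log2). The same control for GAPDH was 0.85 and 0.80, against 0.63 and 0.61. The mean of the bioB, bioC, bioD and cre hybridization controls was 11.41 and 11.54 on the ZNF750 arrays, against 11.08 and 11.15 on the GFP arrays. All 3 measures stood apart and were higher on the ZNF750 arrays, the last by 0.36, which is as large as most member differences that were called. Their part in the results below was not tested.

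Of the 38 members, 6 rose, 2 fell and 30 did not pass the test (adjusted p under 0.05). The genes that rose were the PI3P reader WIPI2, the receptors TAX1BP1, NBR1 and SQSTM1, the ATG8 protein GABARAPL1 and the protease ATG4D. Those that fell, ATG5 and ATG3, both belong to the conjugation machinery. Differences ran from -0.50 to 0.55 on the log2 scale, or from 1.41-fold lower to 1.46-fold higher. The called members made up 21.1% of the list, where 15.1% of all genes were called, 6.39% higher and 8.75% lower. Calls were more frequent among bright genes: 30.7% of the 6776 genes with a mean log2 value of at least 8 were called (10.9% higher, 19.8% lower). Of the members, 26 were that bright, and 6 of them (23.1%) were called. The members were therefore called at a rate between those of the 2 backgrounds, and their number of calls is not a result about autophagy genes as a class.

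The median member difference was 0.08, against 0.04 over all genes and -0.04 over the genes with a mean of at least 8. The median level of the members was 9.23 and 9.18 on the ZNF750 arrays, against 9.17 and 9.10 on the GFP arrays. The difference was positive for 27 members and negative for 11. It was positive for 11354 of 19775 genes, and for 2853 of the 6776 genes with a mean of at least 8. The arrays of the groups did not overlap for 28 members (73.7%), against 58.8% of all genes and 74.6% of the genes with a mean of at least 8. Replicates lay close together: the median gap between the arrays of a group was 0.07 for the members on the ZNF750 arrays and 0.08 on the GFP arrays. By probe set, 9 of 102 rose, 5 fell and 88 did not pass (13.7% called, against 11.5% of all probe sets, 4.3% higher and 7.19% lower). The groups did not overlap for 59 of the 102, or 57.8%, against 54.2% of all probe sets.

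**Figure D1:**
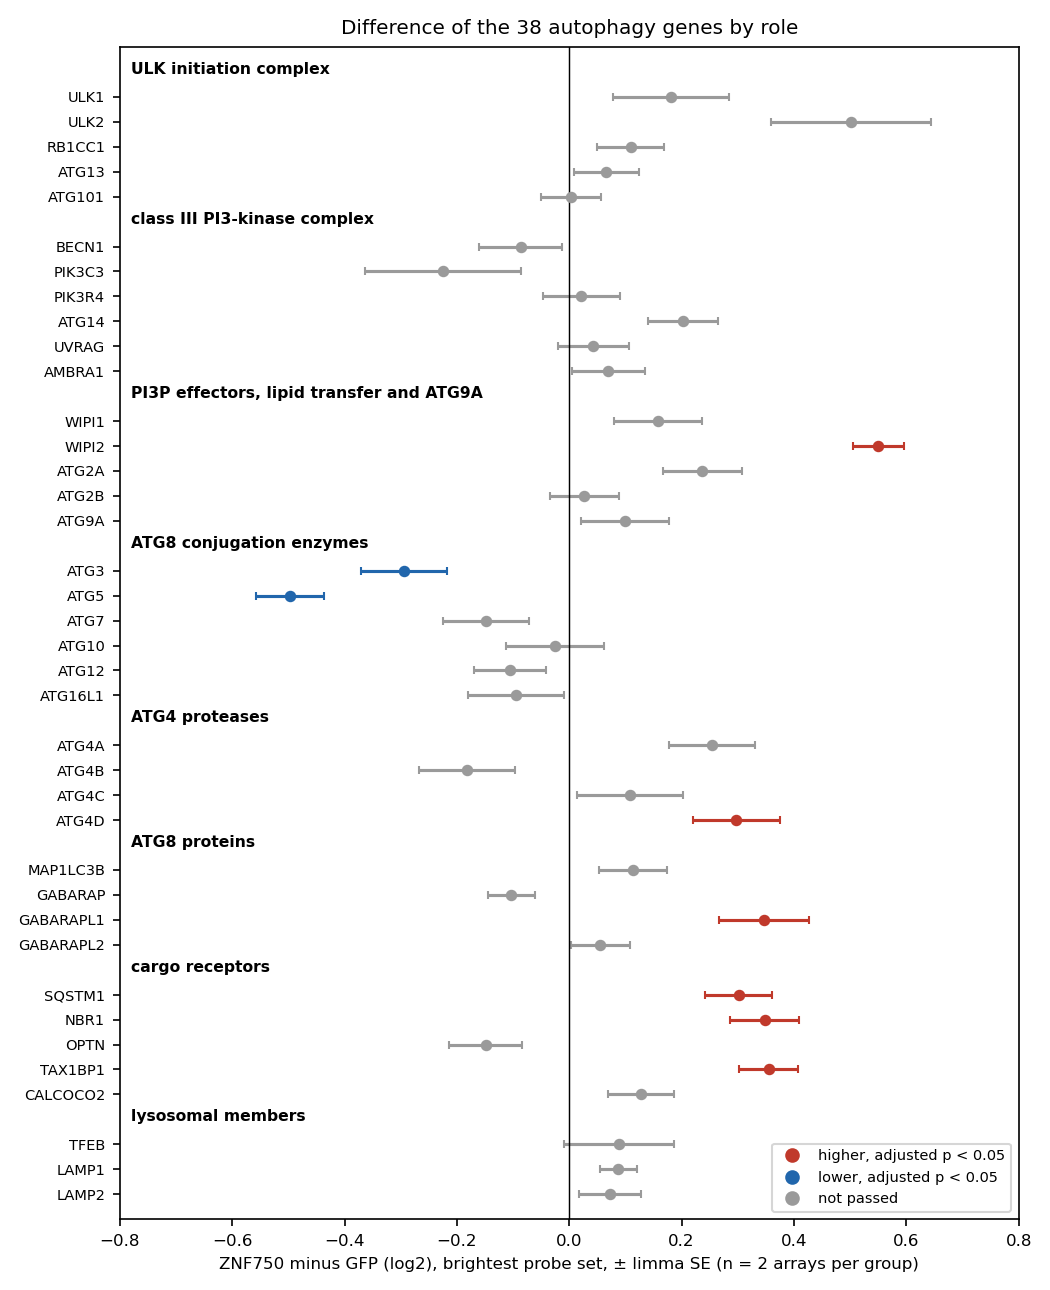
Difference between ZNF750 and GFP arrays (log2, x axis) for each of the 38 members, grouped by role, as the value of the brightest probe set with its limma SE (2 arrays per group). Red points rose, blue points fell and grey points did not pass; the 6 conjugation enzymes all lie left of 0, from -0.50 to -0.03 (1 of them right of 0 under a second quantile normalization or centring), and 4 of the 5 cargo receptors lie right of it.

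No member of the ULK initiation complex was called by its brightest probe set, and all 5 had positive differences, with a median of 0.11. ULK1, the kinase whose activity is held down by MTORC1, read 6.50 and 6.31 on the ZNF750 arrays, against 6.20 and 6.25 on the GFP arrays. The groups did not overlap, but the difference of 0.18 ± 0.10 did not pass (adjusted p = 0.322). Its paralog ULK2 read 4.90 and 5.05 on the ZNF750 arrays, against 4.32 and 4.62 on the GFP arrays, a difference of 0.50 ± 0.14 that also did not pass (adjusted p = 0.0663). Its groups stood apart, yet the other 3 ULK2 probe sets, all dimmer, gave -0.02 to 0.04.

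RB1CC1, also called FIP200, is the scaffold of the complex. A second RB1CC1 probe set, 202034_x_at, read 9.62 and 9.63 on the ZNF750 arrays, against 9.40 and 9.41 on the GFP arrays, and rose by 0.22 ± 0.05 (adjusted p = 0.0372). The brightest one gave 0.11 ± 0.06 (adjusted p = 0.302), and the 2 probe sets did not differ from each other in a test of that difference (0.11 ± 0.08, adjusted p = 0.431). The adaptor ATG13 (0.07 ± 0.06, adjusted p = 0.529) and its partner ATG101 (0.00 ± 0.05, adjusted p = 0.983) gave small differences, and the ATG101 groups overlapped.

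None of the 6 genes of the class III PI3-kinase complex was called, and none of their 20 probe sets. The median difference was 0.03, with 4 genes positive and 2 negative. ATG14, which directs the kinase to the forming autophagosome, read 8.72 and 8.70 on the ZNF750 arrays, against 8.53 and 8.48 on the GFP arrays. Its arrays stood apart by 0.20 ± 0.06, above the spread within either group, without passing (adjusted p = 0.0859). PIK3C3, the catalytic subunit VPS34, read 7.49 and 7.08 on the ZNF750 arrays, against 7.61 and 7.42 on the GFP arrays. The groups overlapped, the difference was -0.23 ± 0.14 (adjusted p = 0.361), and its 7 probe sets ranged from -0.23 to 0.16.

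BECN1, the Beclin 1 scaffold of this complex, had a difference of -0.09 ± 0.07 (adjusted p = 0.521). Its second probe set read 8.20 and 8.24 on the ZNF750 arrays, against 8.48 and 8.44 on the GFP arrays, and just missed the threshold at -0.24 ± 0.07 (adjusted p = 0.0604). The regulatory kinase-like subunit PIK3R4 (0.02 ± 0.07), the endosomal subunit UVRAG (0.04 ± 0.06) and the Beclin 1 regulator AMBRA1 (0.07 ± 0.07) had adjusted p-values of 0.888, 0.734 and 0.561.

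WIPI2 had the highest difference of all members. This protein binds PI3P on the nascent membrane and recruits ATG16L1 to it. Its brightest probe set, 202031_s_at, read 10.66 and 10.67 on the ZNF750 arrays, against 10.12 and 10.11 on the GFP arrays. Replicates were nearly equal within each group and the groups stood well apart. The rise was 0.55 ± 0.05, or 1.46-fold (adjusted p = 0.000995). A second probe set, 204710_s_at, read 10.07 and 10.26 on the ZNF750 arrays, against 9.78 and 9.91 on the GFP arrays, and rose by 0.32 ± 0.08 (adjusted p = 0.0405).

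The other WIPI2 probe sets varied. 214699_x_at gave 0.39 ± 0.10 (adjusted p = 0.0539), 226986_at 0.14 ± 0.07 and the dim 1570033_at -0.03 ± 0.13. A test of the difference between probe sets, added after these values were seen, called 11.7% of 21316 such pairs over all genes and 10 of 64 among the members. In it, 226986_at lay below the brightest WIPI2 probe set by 0.41 ± 0.08 (adjusted p = 0.0101) and 1570033_at by 0.58 ± 0.13 (adjusted p = 0.0167). The mean of all 5 gave 0.27 (adjusted p = 0.0307). The files do not say which transcript forms each probe set reads. With single arrays left out, the WIPI2 difference stayed at 0.54 to 0.56 and passed without ZNF750 replicate 1 (adjusted p = 0.0389) or replicate 2 (adjusted p = 0.0409), but not without GFP replicate 1 (adjusted p = 0.102) or replicate 2 (adjusted p = 0.0887).

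WIPI1, the paralog of WIPI2, gave 0.16 ± 0.08 (adjusted p = 0.25) and a second probe set of -0.07. The lipid transfer protein ATG2A read 10.09 and 9.91 on the ZNF750 arrays, against 9.73 and 9.80 on the GFP arrays. Its groups did not overlap, and the difference of 0.24 ± 0.07 did not pass (adjusted p = 0.0746). Its paralog ATG2B (0.03 ± 0.06, adjusted p = 0.834) and the scramblase ATG9A (0.10 ± 0.08, adjusted p = 0.483) had overlapping groups.

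**Figure D2:**
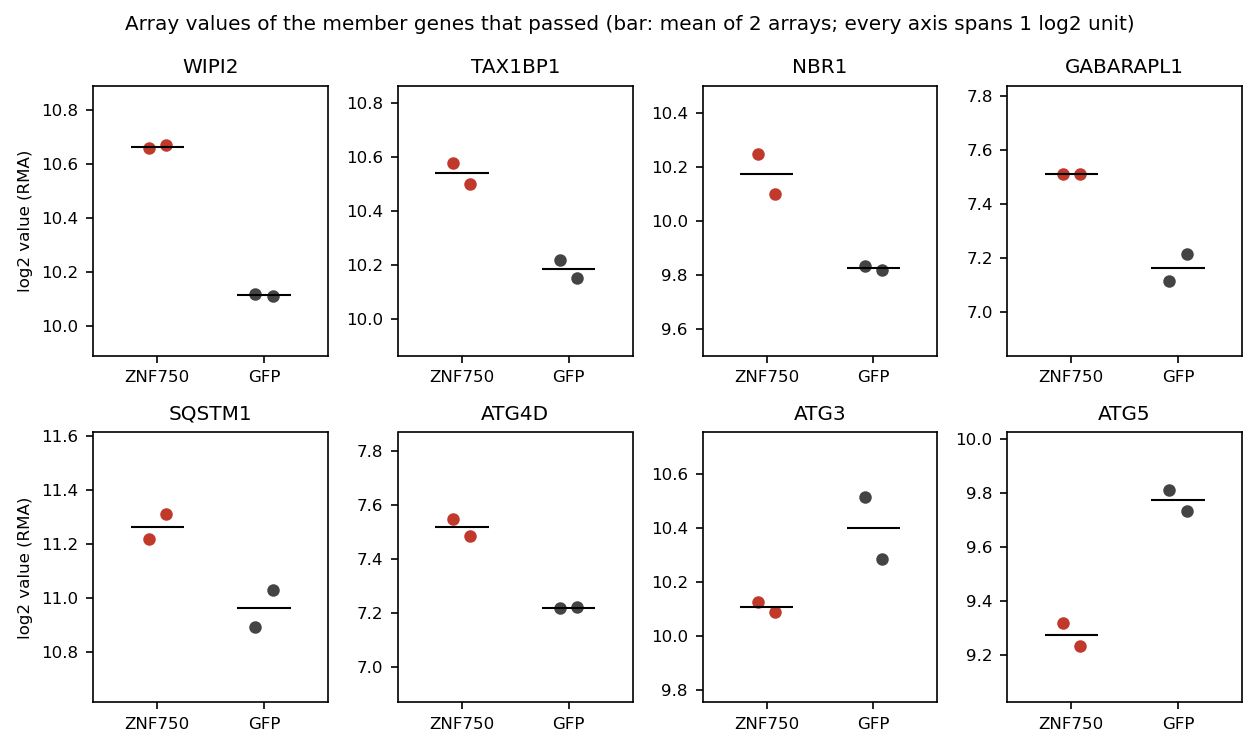
Log2 values (y axis) on each array of the 8 members that passed the test, ZNF750 arrays on the left and GFP arrays on the right of each panel, with a bar at the mean of 2 arrays and every axis spanning 1 log2 unit. No panel shows overlap between the groups; WIPI2 reads 10.66 and 10.67 on the ZNF750 arrays, against 10.12 and 10.11 on the GFP arrays.

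Of the 6 conjugation enzymes, 2 fell and 0 rose. All 6 had negative differences, with a median of -0.13, although 1 of them turned positive under a second quantile normalization or centring on the brighter probe sets. Of their 18 probe sets, 16 had negative differences, 5 fell and 0 rose. In the whole series, differences were negative for 8419 of 19775 genes and 24301 of 54613 probe sets. They were also negative for 3923 of the 6776 genes with a mean of at least 8. Over all features 8.75% of genes and 7.19% of probe sets were called lower, and 19.8% of genes with a mean of at least 8, which 3 of these 6 had. ATG5, which is joined to ATG12 and with ATG16L1 forms the ligase of the LC3 reaction, read 9.32 and 9.23 on the ZNF750 arrays, against 9.81 and 9.73 on the GFP arrays. Both ZNF750 arrays lay below both GFP arrays, and the gene fell by 0.50 ± 0.06, which is 1.41-fold lower (adjusted p = 0.00367).

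A second ATG5 probe set, 210639_s_at, read 7.10 and 7.01 on the ZNF750 arrays, against 7.97 and 7.89 on the GFP arrays. It fell by 0.88 ± 0.08, or 1.84-fold lower (adjusted p = 0.00136), the largest change among the 102 member probe sets. The remaining one, 202512_s_at, gave -0.12 ± 0.09 with overlapping groups (adjusted p = 0.438). In the test between probe sets, 210639_s_at lay below the brightest by 0.38 ± 0.10 (adjusted p = 0.0265) and 202512_s_at above it by 0.38 ± 0.10 (adjusted p = 0.0275). All 3 had negative differences, and they differed in size. The ATG5 difference was -0.54 without ZNF750 replicate 1 (adjusted p = 0.048) and did not pass without ZNF750 replicate 2 (adjusted p = 0.0638), GFP replicate 1 (0.133) or GFP replicate 2 (0.0981).

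ATG3, the E2-like enzyme that transfers ATG8 proteins to lipid, read 10.13 and 10.09 on the ZNF750 arrays, against 10.52 and 10.29 on the GFP arrays. The groups stood apart, with a wider gap between the GFP arrays than between the ZNF750 arrays. ATG3 fell by 0.29 ± 0.08 (adjusted p = 0.0496), at the edge of the threshold. Leaving out GFP replicate 1, the highest array, gave -0.18 (adjusted p = 0.26), and the call was also lost without GFP replicate 2 (0.0984), ZNF750 replicate 1 (0.189) or ZNF750 replicate 2 (0.264). Its other probe set, far dimmer, gave 0.06 ± 0.11, and the mean of both gave -0.12 (adjusted p = 0.349).

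ATG12 and ATG10 were called by dimmer probe sets alone. ATG12, the ubiquitin-like partner of ATG5, had a brightest probe set at 9.24 and 9.28 on the ZNF750 arrays, against 9.43 and 9.31 on the GFP arrays (-0.11 ± 0.06, adjusted p = 0.35). Another ATG12 probe set, 204833_at, read 6.93 and 7.01 on the ZNF750 arrays, against 7.47 and 7.52 on the GFP arrays, and fell by 0.52 ± 0.08 (adjusted p = 0.00807). These 2 probe sets differed by 0.42 ± 0.11 (adjusted p = 0.0286). For ATG10, the E2-like enzyme of the ATG12 reaction, 1570523_s_at read 4.95 and 4.99 on the ZNF750 arrays, against 5.61 and 5.48 on the GFP arrays, and fell by 0.57 ± 0.11 (adjusted p = 0.0187). Its brightest probe set gave -0.03 ± 0.09, and the 2 differed (adjusted p = 0.0354).

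ATG7, the E1-like enzyme that feeds both reactions, read 7.53 and 7.54 on the ZNF750 arrays, against 7.63 and 7.73 on the GFP arrays. The groups did not overlap, but the difference of -0.15 ± 0.08 did not pass (adjusted p = 0.275), and its 4 probe sets ran from -0.19 to -0.03. ATG16L1, the subunit that positions the ligase, gave -0.09 ± 0.09 (adjusted p = 0.543). Without GFP replicate 1, and likewise without ZNF750 replicate 2, 1 of the 6 enzymes had a positive difference. Under cyclic loess or the second quantile normalization 1 of the 6, ATG5, was called lower.

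**Figure D3:**
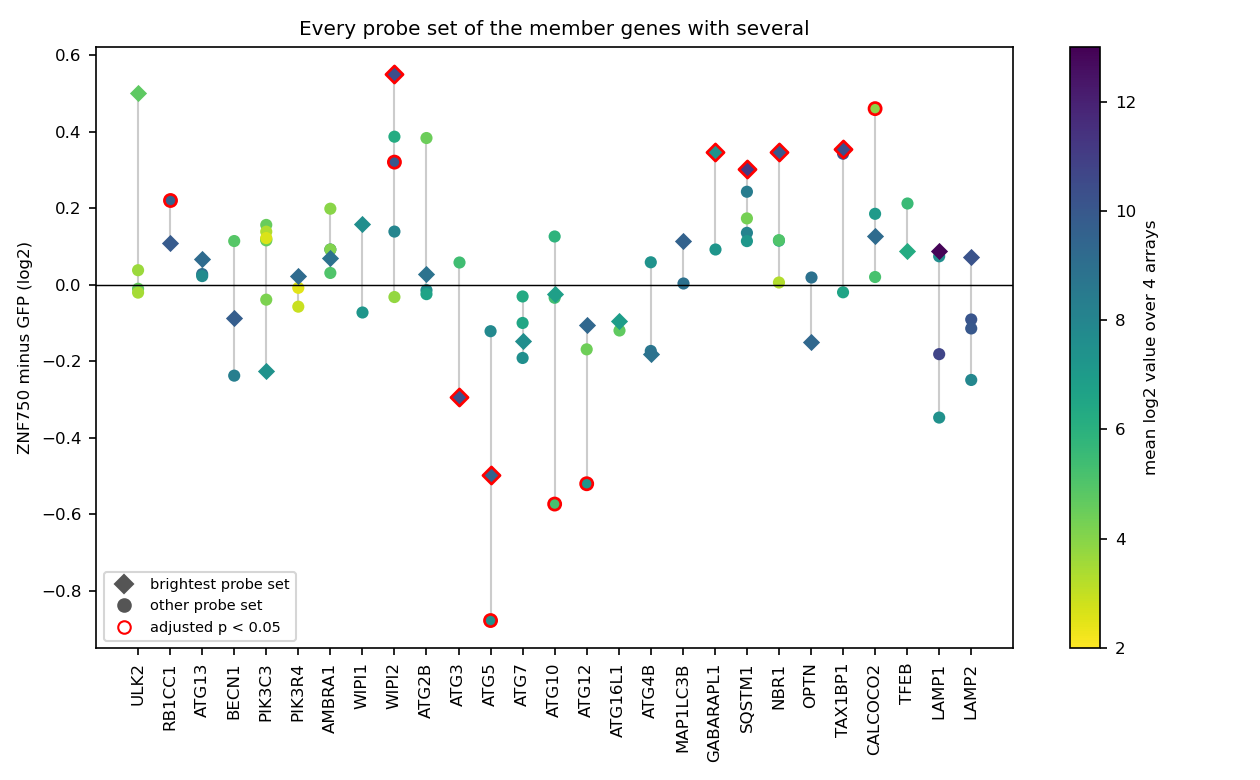
Difference between ZNF750 and GFP arrays (log2, y axis) for every probe set of the 27 members with several, with diamonds for the brightest probe set, circles for the others, colour for the mean log2 value over 4 arrays and red outlines for adjusted p under 0.05. The points of WIPI2 spread from -0.03 to 0.55 and those of ATG5 from -0.88 to -0.12.

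Members read by several probe sets were 27 of the 38, and for 13 of these all probe sets had the same sign. At least 1 probe set was called for 12 members, in 8 upward and in 4 downward, and no member had calls in both directions. The 12 were 31.6% of the members, against 20.5% of all genes (8.11% with an upward and 12.8% with a downward call). Genes with several probe sets have more chances of a call: 11 of the 27 such members (40.7%) had one, against 29.4% of 10523 such genes. Neither share was set beside that of bright genes, among which calls were more frequent. The downward calls were in ATG3, ATG5, ATG10 and ATG12.

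The ATG4 proteases trim newly made ATG8 proteins and later release them from the membrane. ATG4D rose: it read 7.55 and 7.49 on the ZNF750 arrays, against 7.22 and 7.22 on the GFP arrays. The GFP arrays were equal at this precision and both ZNF750 arrays lay above them, by 0.30 ± 0.08 or 1.23-fold (adjusted p = 0.0488). The call lies at the threshold and did not pass with any 1 array left out (adjusted p 0.158 to 0.252). ATG4A read 8.08 and 7.96 on the ZNF750 arrays, against 7.80 and 7.74 on the GFP arrays, and its difference of 0.25 ± 0.08 did not pass (adjusted p = 0.0813). ATG4B, which acts on most ATG8 proteins, gave -0.18 ± 0.09 (adjusted p = 0.233) with probe sets from -0.18 to 0.06, and ATG4C 0.11 ± 0.09 (adjusted p = 0.524).

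Of the 4 ATG8 proteins, 1 rose. GABARAPL1 read 7.51 on both ZNF750 arrays, against 7.11 and 7.22 on the GFP arrays. The ZNF750 arrays lay above both GFP arrays, a rise of 0.35 ± 0.08 or 1.27-fold (adjusted p = 0.0335). Its other probe set gave 0.09 ± 0.08, the mean of both gave 0.22 (adjusted p = 0.0645), and no fit with 1 array left out passed (adjusted p 0.149 to 0.242). A further probe set annotated with both GABARAPL1 and GABARAPL3 was left out.

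MAP1LC3B, the LC3 form most used as an autophagosome marker, read 9.69 and 9.61 on the ZNF750 arrays, against 9.58 and 9.49 on the GFP arrays. The groups lay next to each other without overlap (0.11 ± 0.06, adjusted p = 0.291). Whether its probes also read its near copy MAP1LC3B2 was not tested. GABARAP gave -0.10 ± 0.04 (adjusted p = 0.172). GABARAPL2, which also serves Golgi transport, gave 0.06 ± 0.05 (adjusted p = 0.558).

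Cargo receptors bind ubiquitin or cargo with one face and ATG8 proteins with another. Of the 5 members, 3 rose, 0 fell, and the arrays of the groups did not overlap for any of the 5. All 5 had a mean of at least 8, where 10.9% of genes were called higher and 74.6% had groups that did not overlap. The median difference was 0.30. TAX1BP1, a receptor for protein aggregates and bacteria, read 10.58 and 10.50 on the ZNF750 arrays, against 10.22 and 10.15 on the GFP arrays. Both ZNF750 arrays were higher, and the rise was 0.35 ± 0.05 or 1.28-fold (adjusted p = 0.00708). A second bright probe set gave 0.34 ± 0.09 (adjusted p = 0.057), while the dimmer 213786_at gave -0.02 ± 0.09 and lay below the brightest by 0.37 ± 0.10 (adjusted p = 0.0329).

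NBR1, a receptor for aggregates and peroxisomes, read 10.25 and 10.10 on the ZNF750 arrays, against 9.83 and 9.82 on the GFP arrays. The ZNF750 arrays were both above the tightly paired GFP arrays, a rise of 0.35 ± 0.06 or 1.27-fold (adjusted p = 0.0133). Its 3 dimmer probe sets gave 0.01 to 0.12. SQSTM1, which encodes p62, read 11.22 and 11.31 on the ZNF750 arrays, against 10.89 and 11.03 on the GFP arrays. The groups stood apart and SQSTM1 rose by 0.30 ± 0.06 or 1.23-fold (adjusted p = 0.0189), with its other 4 probe sets between 0.11 and 0.24.

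CALCOCO2, the NDP52 receptor of bacteria and mitochondria, gave 0.13 ± 0.06 (adjusted p = 0.225). A dim CALCOCO2 probe set, 1560631_at, read 4.11 and 4.17 on the ZNF750 arrays, against 3.68 and 3.67 on the GFP arrays, and rose by 0.46 ± 0.11 (adjusted p = 0.0426). OPTN, a receptor for mitochondria, was the member of this group with a negative difference: it read 9.30 and 9.21 on the ZNF750 arrays, against 9.46 and 9.35 on the GFP arrays (-0.15 ± 0.06, adjusted p = 0.197). Averaging each gene's probe sets left 1 of the 5 receptors called, TAX1BP1 at 0.23 (adjusted p = 0.0461), with SQSTM1 at 0.19 (0.101) and NBR1 at 0.15 (0.25). With any 1 of the 4 arrays left out, 0 of the 5 receptors passed. The adjusted p then ranged from 0.0647 to 0.134 for TAX1BP1, from 0.0578 to 0.184 for NBR1 and from 0.0908 to 0.204 for SQSTM1.

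None of the 3 lysosomal members was called. TFEB, the transcription factor of lysosomal and autophagy genes, read 6.28 and 6.35 on the ZNF750 arrays, against 6.17 and 6.29 on the GFP arrays, with overlap (0.09 ± 0.10, adjusted p = 0.632). LAMP1, a membrane glycoprotein of lysosomes whose window held 5 copies of CACGTG, read 12.93 and 12.91 on the ZNF750 arrays, against 12.81 and 12.86 on the GFP arrays. The groups stood apart by a small step of 0.09 ± 0.03 that did not pass (adjusted p = 0.148).

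Another LAMP1 probe set, 201552_at, read 10.62 and 10.68 on the ZNF750 arrays, against 10.85 and 10.81 on the GFP arrays. Its difference of -0.18 ± 0.05 ran the other way, with an adjusted p that rounds to 0.05 and lies just above the threshold. It lay below the brightest LAMP1 probe set by 0.27 ± 0.05 (adjusted p = 0.00715), and 201551_s_at by 0.43 ± 0.10 (adjusted p = 0.0188), so the direction for LAMP1 depends on the probe set. LAMP2, needed for fusion of autophagosomes with lysosomes, gave 0.07 ± 0.06 (adjusted p = 0.464) by its brightest probe set and -0.09, -0.11 and -0.25 by the others. The last of these, 226671_at, lay below the brightest by 0.32 ± 0.10 (adjusted p = 0.0492). When the probe sets of each gene were averaged, the median of the 3 genes turned from 0.09 to -0.09.

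Genes that act beside the members were read from 4 lists, of which 26.3% to 37.5% were called, against 15.1% of all genes and 30.7% of those with a mean of at least 8. Among 30 other core autophagy and fusion genes, 4 rose, 4 fell and the median was 0.00. TP53INP1, a p53 target that binds ATG8 proteins, rose most in this list: it read 8.12 and 8.07 on the ZNF750 arrays, against 7.35 and 7.07 on the GFP arrays, or 1.85-fold higher (0.89 ± 0.10, adjusted p = 0.00321). EVA1A, a lysosomal and ER membrane protein linked to autophagy, read 8.30 and 8.37 on the ZNF750 arrays, against 9.18 and 9.14 on the GFP arrays, or 1.77-fold lower (-0.83 ± 0.06, adjusted p = 0.000698). The groups were far apart for both genes, in opposite directions. SH3GLB1, a UVRAG partner that bends membranes, fell by 0.51 ± 0.06 (adjusted p = 0.0031). TMEM41B, an ER scramblase of early autophagosomes, fell by 0.48 ± 0.06 (adjusted p = 0.00332). Averaging probe sets gave 0.38 for TP53INP1 and -0.31 for SH3GLB1, and both still passed.

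Among 19 of 20 listed receptors and adaptors of selective autophagy, 3 rose and 2 fell, with a median of 0.02. BNIP3, a mitochondrial receptor also known as a hypoxia target, read 11.78 on both ZNF750 arrays, against 10.91 and 10.98 on the GFP arrays. Its relative BNIP3L, or NIX, read 10.91 and 10.85 on the ZNF750 arrays, against 10.18 and 10.28 on the GFP arrays. Both genes stood clear of the spread between replicates: BNIP3 rose 1.78-fold (0.83 ± 0.04, adjusted p = 0.000242) and BNIP3L rose 1.56-fold (0.65 ± 0.05, adjusted p = 0.00102). The endosomal adaptor TOLLIP fell by 0.37 ± 0.08 (adjusted p = 0.0263) and PHB2, a mitochondrial inner membrane receptor, fell by 0.27 ± 0.04 (adjusted p = 0.00523). The mean of the TOLLIP probe sets gave -0.15 and did not pass (adjusted p = 0.242).

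Among 26 genes of MTORC1 and AMPK control, 4 rose and 5 fell. The median of -0.08 moved to between -0.03 and -0.02 under cyclic loess, a second quantile normalization or centring. Differences were negative for 17 of the 26, the lowest at -0.50. The 4 genes named here had the largest differences among the called genes and all rose, so they do not stand for the list. DDIT4, or REDD1, a stress-induced inhibitor of MTORC1, read 10.94 and 10.85 on the ZNF750 arrays, against 10.00 and 9.95 on the GFP arrays. It rose 1.90-fold (0.92 ± 0.05, adjusted p = 0.000289), with no overlap. PRKAA2, a catalytic subunit of AMPK, read 6.96 and 6.56 on the ZNF750 arrays, against 5.99 and 5.86 on the GFP arrays, and rose 1.78-fold (0.83 ± 0.14, adjusted p = 0.0115) with a wide gap between its ZNF750 arrays. DEPTOR, which binds and restrains MTOR, rose by 0.54 ± 0.10 (adjusted p = 0.0131). SESN2, a leucine-sensing inhibitor of MTORC1, rose by 0.48 ± 0.09 (adjusted p = 0.0152).

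Among 40 of 44 listed lysosomal genes of the kind TFEB activates, 2 rose and 13 fell, with a median of -0.06 that moved to between -0.01 and 0.00 under cyclic loess, a second quantile normalization or centring. LIPA, the lysosomal acid lipase, read 9.25 and 9.37 on the ZNF750 arrays, against 9.93 and 9.91 on the GFP arrays, or 1.53-fold lower (-0.61 ± 0.06, adjusted p = 0.00181). Its groups stood apart. SMPD1, acid sphingomyelinase, fell by 0.47 ± 0.10 (adjusted p = 0.022), the proton pump subunit ATP6V1H by 0.38 ± 0.07 (adjusted p = 0.0138) and the protease CTSZ by 0.38 ± 0.06 (adjusted p = 0.0077). With the probe sets of each gene averaged, none of these 4 passed: the difference was -0.07 for LIPA (adjusted p = 0.622), -0.16 for SMPD1 (0.216), -0.27 for ATP6V1H (0.0572) and -0.21 for CTSZ (0.0647). The downward calls made up more of this list than of all genes (8.75%), but 30 of its 40 genes had a mean of at least 8, where 19.8% of genes were called lower. Under those scalings 11 or 12 of its genes were called lower. Without the intensity trend 0 of its genes rose and 1 fell. In that fit 1 rose and 1 fell among the other core genes, and 2 rose and 0 fell among the selective receptors and adaptors. Of the MTORC1 and AMPK genes, 1 rose and 0 fell.

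In the 4 lists, without GFP replicate 1, and likewise without GFP replicate 2, 0 genes of any list passed. For DDIT4 and BNIP3, which have the smallest adjusted p of the genes named from these lists, the values were 0.0876 for both without GFP replicate 1 and 0.072 for both without GFP replicate 2, and both genes passed without either ZNF750 array.

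**Figure D4:**
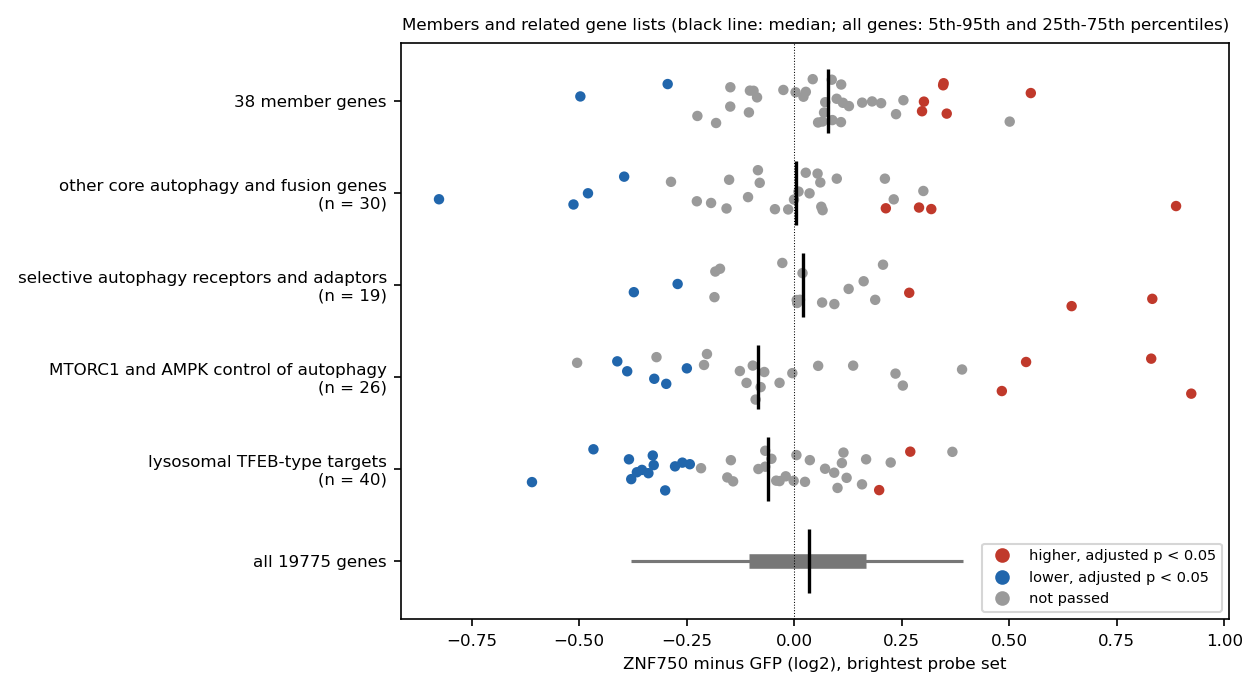
Difference between ZNF750 and GFP arrays (log2, x axis) of the brightest probe set of each gene, for the 38 members, 4 related lists and all 19775 genes, with black lines at the medians and bars at percentiles of all genes. Red points rose, blue points fell and grey points did not pass; the member median is 0.08, and 13 of 40 lysosomal genes are blue.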

How the data were processed

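Total RNA of 4 samples was measured on Affymetrix HG-U133 Plus 2.0 arrays, and groups were taken from the sample titles. The authors deposited log2 values of 54675 probe sets, made with RMA per the submitters' processing notes (version not given in the sources used here). This method removes background, equalises the arrays by quantiles and combines the probes of a set, and it compresses differences of dim probe sets. Scanner files, detection calls and probe positions were not used here, and the number of arrays limits the precision.

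After 62 control probe sets were left out, a linear model of group was fitted to the deposited log2 values (limma 3.58.1, R 4.3.3), with moderated variances that follow intensity and 2 residual degrees of freedom. P-values were adjusted by Benjamini-Hochberg over 54613 probe sets and called under 0.05. An exact permutation test of 2 against 2 arrays cannot go below p = 0.333. On simulated data of this design, over the same 54613 probe sets, 11 of 50 probe sets changed by 1 log2 unit were recovered. With 2 units 39 of 50 were recovered, with 0 false calls. Only 50 probe sets per size were changed there, with noise drawn from each probe set's own spread between replicates. In the real data 6275 probe sets were called. The simulated recovery and false calls therefore do not measure the sensitivity or error rate of this fit. Symbols came from the platform annotation: 41091 probe sets had 1, 1801 several and 11721 none; RefSeq changed 0 member symbols. Named genes were all members and the 4 genes with the largest differences among the called genes of each related list. The members and lists were chosen with earlier results of these data known.

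The labels do not say whether same-numbered arrays share anything beyond the number. Alternatives covered the variance prior, probe set choice, a filter at a mean log2 value of 5, normalization, centring, the replicate block, thresholds and leaving out each array. A filter on constant probe sets and the test between probe sets were added after seeing the data.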

Additional observations from a re-analysis of the deposited data

How the results depend on the processing

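The 8 members that passed kept their sign in every alternative that left their probe set in place. Where an alternative altered only the variance, a filter, the adjustment or a threshold, the difference was unchanged and its sign could not change. Of 598 member values by alternative, 520 stayed on their side of the threshold, a count that includes the 30 members that had not passed. Of the 8, 7 kept the call under cyclic loess, 6 with the replicate block, 4 with averaged probe sets and 1 without the intensity trend. Of the 30 members that did not pass, 6 (ULK2, ATG14, ATG2A, ATG12, ATG4A and LAMP1) passed in at least 1 alternative. Of the 6 genes that rose and 2 that fell, 1 and 0 passed without the intensity trend (probe sets 1 and 3; over all probe sets 520 and 754). At an adjusted p under 0.01 the counts were 2 and 1 (probe sets 2 and 3; all 704 and 1474), and with a difference of at least 0.5 they were 1 and 0 (1 and 3; 961 and 1457). Cyclic loess gave 10 and 1 with a median of 0.13 and 14 probe sets higher. A second quantile normalization gave 9 and 1 with a median of 0.14. Centring gave 10 and 2 with a median of 0.13, 16 member probe sets higher and 4176 of all. The cause was not tested. Counted by gene, lower calls were 25% of the member calls, 9.09% under loess and 10.0% under the second quantile normalization. Counted by probe set over the whole series, they were 62.6%, and 46.2% under centring. These units differ. In the main fit 1263 of all genes were called higher and 1730 lower, and by probe set the members had 9 higher and 5 lower calls.

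Without probe sets ending in _s_at or _x_at, which removes 9 members, 0 rose and 1 fell (LAMP1, -0.18, also a change of sign). Every member that had passed was led by a probe set ending in _s_at. Of the 5 that another probe set could still read, 0 kept the call. WIPI2 then gave 0.14 (adjusted p = 0.214), SQSTM1 0.14 (adjusted p = 0.394) and NBR1 0.12 (adjusted p = 0.581). Among the named genes that had passed, TAX1BP1 (-0.020), ATG3 (0.058), SMPD1 (0.020) and TOLLIP (0.15) changed sign, each read by another probe set. So did the members ULK2 (-0.01), BECN1 (0.11), WIPI1 (-0.07) and OPTN (0.02), which had not passed. With single arrays left out, where the lone array is assumed to vary like the others, 0 to 1 members rose and 0 to 1 fell (probe sets 0 to 1 and 0 to 2; all 8 to 267 and 1 to 661), with medians of 0.05 to 0.10. With the replicate number as a block 5 rose and 1 fell; same-numbered arrays deviated together weakly (r = 0.161 over 19775 genes), a hint from 2 pairs only.

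With 2 arrays per group and no detection calls, a difference that did not pass is not shown to be absent. In the simulation, which changed far fewer probe sets than were called here, 1 of 50 differences of 0.5 log2 units was recovered. That share does not measure the sensitivity of the real fit, where WIPI2 (0.55) and ATG5 (-0.50) passed and ULK2 (0.50) did not. Whether dim probe sets lie above background is not known.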
